A study of Mus musculus with 7 samples.

Results

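The nuclear genes of oxidative phosphorylation were followed in sorted mouse bone marrow progenitors by targeted RNA sequencing, which reads 1 short amplicon per gene. Members were all symbols in the count tables that start with Nduf, Uqcr, Atp5 or Cox4 to Cox8, or equal Sdha, Sdhb, Sdhc, Sdhd or Cyc1. This name rule gave 82 of 23930 genes: 31 complex I subunits, 7 complex I assembly factors of the Ndufaf series, 4 genes of complex II, 9 of complex III, 18 of complex IV (with Ndufa4 and Ndufa4l2, which are counted there) and 13 of the ATP synthase. The ATP synthase group takes every Atp5 symbol by name alone. Among them are Atp5c1-ps, and Atp5s and Atp5sl, which RefSeq lists as Dmac2l and Dmac2. The rule used no measured value. A filter on low counts left 76 members for testing. The other 6 (Atp5c1-ps, Cox6a2, Cox7b2, Cox8b, Cox8c and Ndufa4l2) had at most 4 counts in any library.

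The 7 libraries fall into 4 groups. From pMT-10 mice came 1 library of hematopoietic stem cells (HSC), 2 of LSK cells (lineage markers absent, SCA-1 and c-KIT present) that carry CD150 and CD48 (LSK CD150+CD48+), and 2 of common myeloid progenitors (CMPs); from C57BL/6 mice came 2 libraries of CMPs (BL/6 CMPs). pMT-10 mice overexpress interleukin-10 from a transgene driven by a zinc-responsive metallothionein promoter, and every mouse of both strains drank zinc-supplemented water for 15 days, so the BL/6 mice are controls for zinc but no group went without it. Cells were sorted by FACS, and the gates that define HSC and CMPs are not used here. Counts came in a pair of tables, each named for a sequencing chip with its own date: both pMT-10 CMP libraries and both LSK CD150+CD48+ libraries share the earlier one (chip 1), while the HSC and BL/6 CMP libraries share the later one (chip 2). Strain and chip therefore cannot be told apart between the CMP groups. Nothing in the labels ties the libraries of a group to different mice, and what the p-values measure is the spread between these libraries, which may be technical.

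Oxidative phosphorylation couples the transfer of electrons from NADH and succinate to oxygen with the making of ATP. Complex I (NADH dehydrogenase) and complex II (succinate dehydrogenase, also an enzyme of the tricarboxylic acid cycle) feed electrons through ubiquinone to complex III, cytochrome c and complex IV (cytochrome c oxidase), and the ATP synthase uses the proton gradient that complexes I, III and IV build. Quiescent blood stem cells are known for relying on glycolysis more than their proliferating progeny do. Several members of the family are spare or tissue-restricted isoforms, such as Cox4i2 beside Cox4i1.

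Library totals ran from 7372430 to 13854314 counts, and the members took 1.94 to 2.38% of them. A count of 0 allows up to 3 counts, which is 0.217 to 0.407 CPM (counts scaled to equal library totals) for these libraries; this floor covers counting error only. Ly6a, which encodes SCA-1, was highest in HSC (331 CPM) and LSK CD150+CD48+ cells (326 and 249 CPM). The pMT-10 CMP libraries had 19.4 and 28.0 CPM of Ly6a, and the BL/6 ones 0.0923 and 2.02 CPM. Cd48 was lower in HSC (6.49 CPM) than in LSK CD150+CD48+ cells (63.6 and 40.5 CPM). Slamf1, which encodes CD150, read 89.3 CPM in HSC and 53.3 and 59.9 CPM in LSK CD150+CD48+ cells. All CMP libraries lay lower for Slamf1, from 12.1 to 25.5 CPM. Kit, which encodes c-KIT, did not set LSK CD150+CD48+ cells (81.2 and 118 CPM) above the CMPs. For Kit the pMT-10 CMPs gave 95.3 and 140 CPM, HSC 158 CPM, and BL/6 CMPs, the highest, 303 and 274 CPM. Lists of macrophage and of T and NK cell markers summed to at most 1.05 and 4.90 CPM in any library. Levels are compared between libraries for the same gene and not between genes, because each amplicon amplifies with its own efficiency.

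Promoter sequence is shown for 5 members that the comparison of the CMP groups turns on, the 3 decreases with an available window and the 2 largest increases. The stretches are the 100 bases before the RefSeq start on GRCm38.p6, read 5′ to 3′ on the strand of the gene. Capitals mark the core motifs of 3 factors known for mitochondrial genes: NRF1 (GCGCANGCG), the ETS family that includes GABPA (CCGGAAG), and YY1 (AAGATGGC), each searched on both strands.
Sdha, chr13:74350241-74350340, minus strand: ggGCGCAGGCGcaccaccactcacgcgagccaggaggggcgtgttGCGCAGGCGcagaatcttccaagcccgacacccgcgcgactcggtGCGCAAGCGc
Cox6a1, chr5:115348959-115349058, minus strand: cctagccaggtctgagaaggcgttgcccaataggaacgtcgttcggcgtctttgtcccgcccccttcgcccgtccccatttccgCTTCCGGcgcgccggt
Ndufv3, chr17:31520015-31520114, plus strand: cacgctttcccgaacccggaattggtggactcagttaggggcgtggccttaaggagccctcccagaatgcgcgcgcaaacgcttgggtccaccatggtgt
Uqcr11, chr10:80406822-80406921, minus strand: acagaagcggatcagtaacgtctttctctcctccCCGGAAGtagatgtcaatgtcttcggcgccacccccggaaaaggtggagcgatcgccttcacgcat
Atp5o, chr16:91931631-91931730, minus strand: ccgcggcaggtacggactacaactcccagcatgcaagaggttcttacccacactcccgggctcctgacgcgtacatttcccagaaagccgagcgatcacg

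Sdha held 3 NRF1 cores in its stretch, Cox6a1 and Uqcr11 held 1 ETS core each, and Ndufv3 and Atp5o held none of the motifs. Over the wider window described next, Cox6a1 also held 2 NRF1 cores and Uqcr11 and Atp5o 1 each. In windows of 300 bases (250 before to 50 after the start), available for 64 members as 69 windows, the NRF1 core was in 26.1% of member windows and in 6.25% of all 32851 windows, the ETS core in 21.7 and 8.86%, and the YY1 core in 15.9 and 2.75%. None of the 69 windows had hits of different motifs that overlap. Among members higher in pMT-10 CMPs than in BL/6 CMPs (19 windows) the shares were 21.1% for NRF1, 26.3% for ETS and 10.5% for YY1, beside 26.7, 20 and 20% among tested members with no call (45 windows). Among the 3 windows of members that were lower, 2 held an NRF1 core, 1 an ETS core and 0 a YY1 core. These matches describe letters only.

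The first comparison, pMT-10 CMPs against BL/6 CMPs, covers interleukin-10 overexpression together with the sequencing chip, and the 2 cannot be told apart. Of the 76 tested members, 18 rose (23.7%, against 14.3% of all 11429 genes tested) and 4 fell (5.26%, against 13.7% of all genes) in pMT-10 CMPs at an adjusted p under 0.05 (edgeR's quasi-likelihood test, Benjamini-Hochberg adjustment over all genes). Increases were spread over complexes I, III and IV and the ATP synthase: 8 of 31 complex I subunits, 2 of 7 assembly factors, 1 of 9 genes of complex III, 5 of 13 of complex IV and 2 of 12 of the ATP synthase rose. In complex II no member rose and 2 of 4 fell, and the other decreases were Ndufv3 in complex I and Cox6a1 in complex IV. The median log2 fold change of the tested members was 0.12, and that of all genes 0.01. The libraries of the groups did not overlap for 28 members that were higher (33.2% of all genes did so) and 19 that were lower (33.7%) in pMT-10 CMPs.

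**Figure D1:**
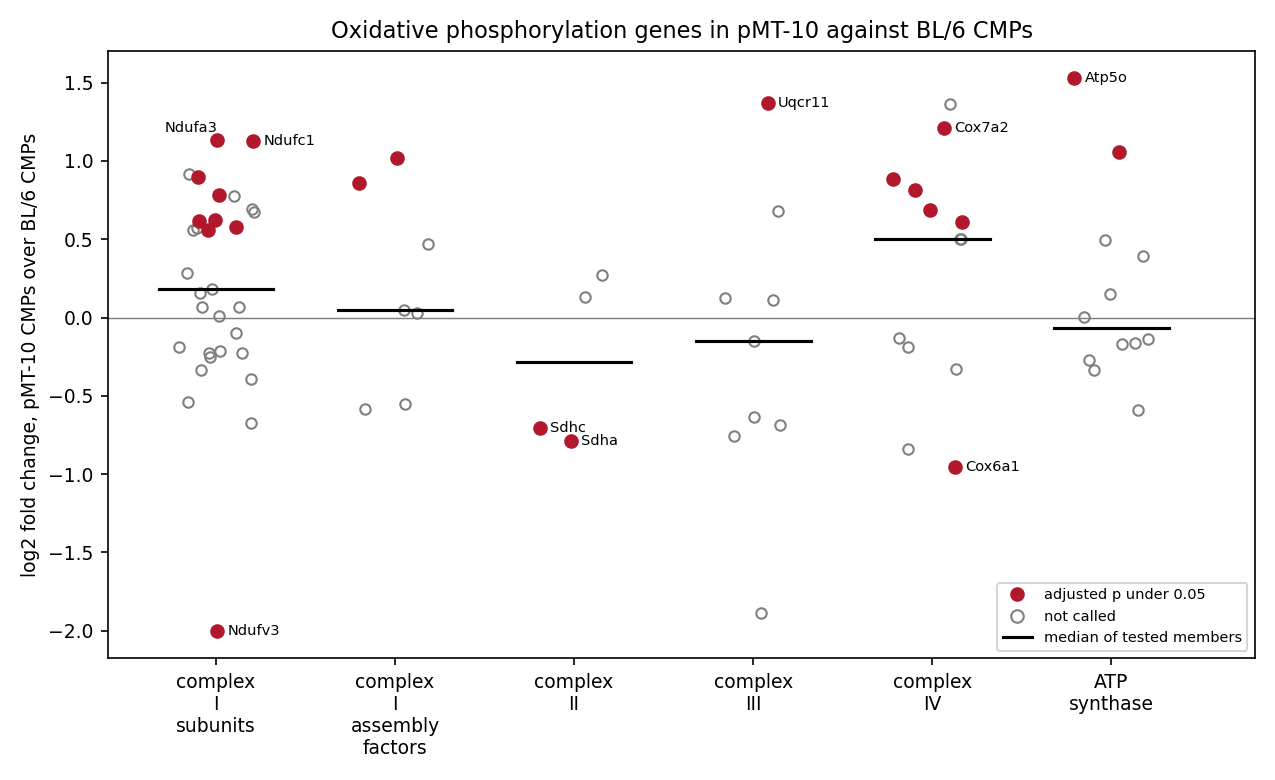
Log2 fold change of each tested member in pMT-10 CMPs over BL/6 CMPs, by complex; filled points passed an adjusted p under 0.05, open points did not, and lines are medians of the tested members. Atp5o, Uqcr11 and Cox7a2 are the highest filled points, Ndufv3 is the lowest point, and both filled points of complex II lie below 0.

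Uqcr11, a small subunit of complex III (chromosome 10, 80402997 to 80406821, GRCm38.p6), was read at 550 and 602 CPM in pMT-10 CMPs, against 212 and 233 CPM in BL/6 CMPs. Both pMT-10 libraries lay above both BL/6 libraries by far more than either pair differed. The log2 fold change was 1.37 ± 0.17 (SE, adjusted p = 0.00171). Its promoter stretch, printed above, holds an ETS core. Its partners in complex III did not pass the test. The catalytic subunits Cyc1 (cytochrome c1) and Uqcrfs1 (the Rieske iron-sulfur protein) had log2 fold changes of 0.12 ± 0.19 and -0.64 ± 0.23, and the core proteins Uqcrc1 and Uqcrc2 had -0.15 ± 0.18 and 0.11 ± 0.20.

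In the ATP synthase, Atp5o, the subunit that joins the stalk to the catalytic head (chromosome 16, 91925223 to 91931630), was at 431 and 691 CPM in pMT-10 CMPs, against 198 and 191 CPM in BL/6 CMPs. The pMT-10 pair was spread widely but stayed above the BL/6 pair, with a log2 fold change of 1.53 ± 0.24 (adjusted p = 0.00314). GENCODE M21 annotates 2 overlapping gene entries under this symbol. Atp5d, the delta subunit of the central stalk, was at 194 and 284 CPM in pMT-10 CMPs, against 108 and 121 CPM in BL/6 CMPs, and rose by 1.06 ± 0.22 (adjusted p = 0.00902). The catalytic subunits Atp5a1 and Atp5b did not pass the test, and neither did Atp5c1. Atp5a1 averaged 1337 ± 215 CPM in pMT-10 CMPs and 1612 ± 112 CPM in BL/6 CMPs (SD, n = 2 each). In the same order of groups, Atp5b averaged 1959 ± 256 and 1392 ± 9.46 CPM, and Atp5c1 271 ± 38.6 and 206 ± 5.16 CPM. Atp5e had a log2 fold change of 0.15 ± 0.30. Atp5g3, which encodes the c subunit of the membrane ring, averaged 943 ± 298 CPM in pMT-10 CMPs and 942 ± 32.2 CPM in BL/6 CMPs.

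In complex IV the increases were in small nuclear subunits that surround the catalytic core. Cox7a2, the isoform of subunit VIIa used outside heart and muscle, was at 566 and 530 CPM in pMT-10 CMPs, against 223 and 252 CPM in BL/6 CMPs (log2 fold change 1.21 ± 0.17, adjusted p = 0.00248). Cox5b was at 441 and 383 CPM in pMT-10 CMPs, against 194 and 252 CPM in BL/6 CMPs. Cox6b1, which faces cytochrome c, was at 904 and 755 CPM in pMT-10 CMPs, against 443 and 499 CPM in BL/6 CMPs. These 3 genes showed no overlap between the groups, and Cox5b and Cox6b1 rose by 0.88 ± 0.20 and 0.82 ± 0.18. Cox7b and Ndufa4 rose by 0.68 ± 0.22 and 0.61 ± 0.16.

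Cox6a1, the isoform of subunit VIa found in most tissues (chromosome 5, 115345652 to 115348958), went the other way, with 786 and 431 CPM in pMT-10 CMPs, against 1118 and 1236 CPM in BL/6 CMPs. It fell by 0.95 on the log2 scale (SE 0.26, adjusted p = 0.0255), although the pMT-10 libraries themselves differed nearly as much as the groups did. Its heart and muscle counterpart Cox6a2 had at most 2 counts in any library. Cox4i1, the common isoform of subunit IV, had a log2 fold change of -0.33 ± 0.26 and did not pass.

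Complex I gave the largest count of increases. Ndufa3 was at 108 and 104 CPM in pMT-10 CMPs, against 44.6 and 52.0 CPM in BL/6 CMPs, and rose by 1.13 ± 0.18 (adjusted p = 0.00358). Ndufc1 was at 164 and 160 CPM in pMT-10 CMPs, against 69.4 and 79.3 CPM in BL/6 CMPs, and rose by 1.12 ± 0.18 (adjusted p = 0.0034). In both genes the pMT-10 pair was tight and about a doubling above the BL/6 pair. Of the core subunits described here, those conserved from bacteria, Ndufs8, Ndufs3 and Ndufv2 rose by 0.90 ± 0.22, 0.58 ± 0.18 and 0.56 ± 0.18. The others did not pass: Ndufs1 averaged 375 ± 101 CPM in pMT-10 CMPs, against 493 ± 19.2 CPM in BL/6 CMPs (SD, n = 2 each), and Ndufs7 and Ndufv1 had log2 fold changes of 0.07 ± 0.22 and -0.34 ± 0.24. The accessory subunits Ndufa8, Ndufb7 and Ndufb3 rose by 0.78 ± 0.18, 0.62 ± 0.18 and 0.62 ± 0.16. Of the assembly factors, which help build complex I and are not part of it, Ndufaf2 was at 46.7 and 57.5 CPM in pMT-10 CMPs, against 25.7 and 25.8 CPM in BL/6 CMPs (1.02 ± 0.21), and Ndufaf4 rose by 0.86 ± 0.19.

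Ndufv3, an accessory subunit of the NADH-binding module (chromosome 17, 31520115 to 31531326), was the largest decrease. It was at 36.5 and 12.2 CPM in pMT-10 CMPs, against 82.2 and 113 CPM in BL/6 CMPs, and fell, with a log2 fold change of -1.999 ± 0.42 (adjusted p = 0.00878). The groups did not overlap, and the pMT-10 libraries differed from each other by 1.57 on the log2 scale.

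Complex II had no increase, and its members were split. Sdha, the flavoprotein that oxidises succinate (chromosome 13, 74322255 to 74350240), was at 303 and 363 CPM in pMT-10 CMPs, against 577 and 573 CPM in BL/6 CMPs. It fell by 0.79 on the log2 scale (SE 0.18, adjusted p = 0.0129). Sdhc, a membrane anchor with the haem and ubiquinone site, was at 171 and 124 CPM in pMT-10 CMPs, against 224 and 256 CPM in BL/6 CMPs, and fell by 0.70 (SE 0.20, adjusted p = 0.029). Neither gene overlapped between the groups. Sdhb, the iron-sulfur subunit, averaged 281 ± 13.6 CPM in pMT-10 CMPs and 233 ± 20.6 CPM in BL/6 CMPs, and Sdhd, the other anchor, 742 ± 81.2 and 677 ± 42.3 CPM; neither passed.

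**Figure D2:**
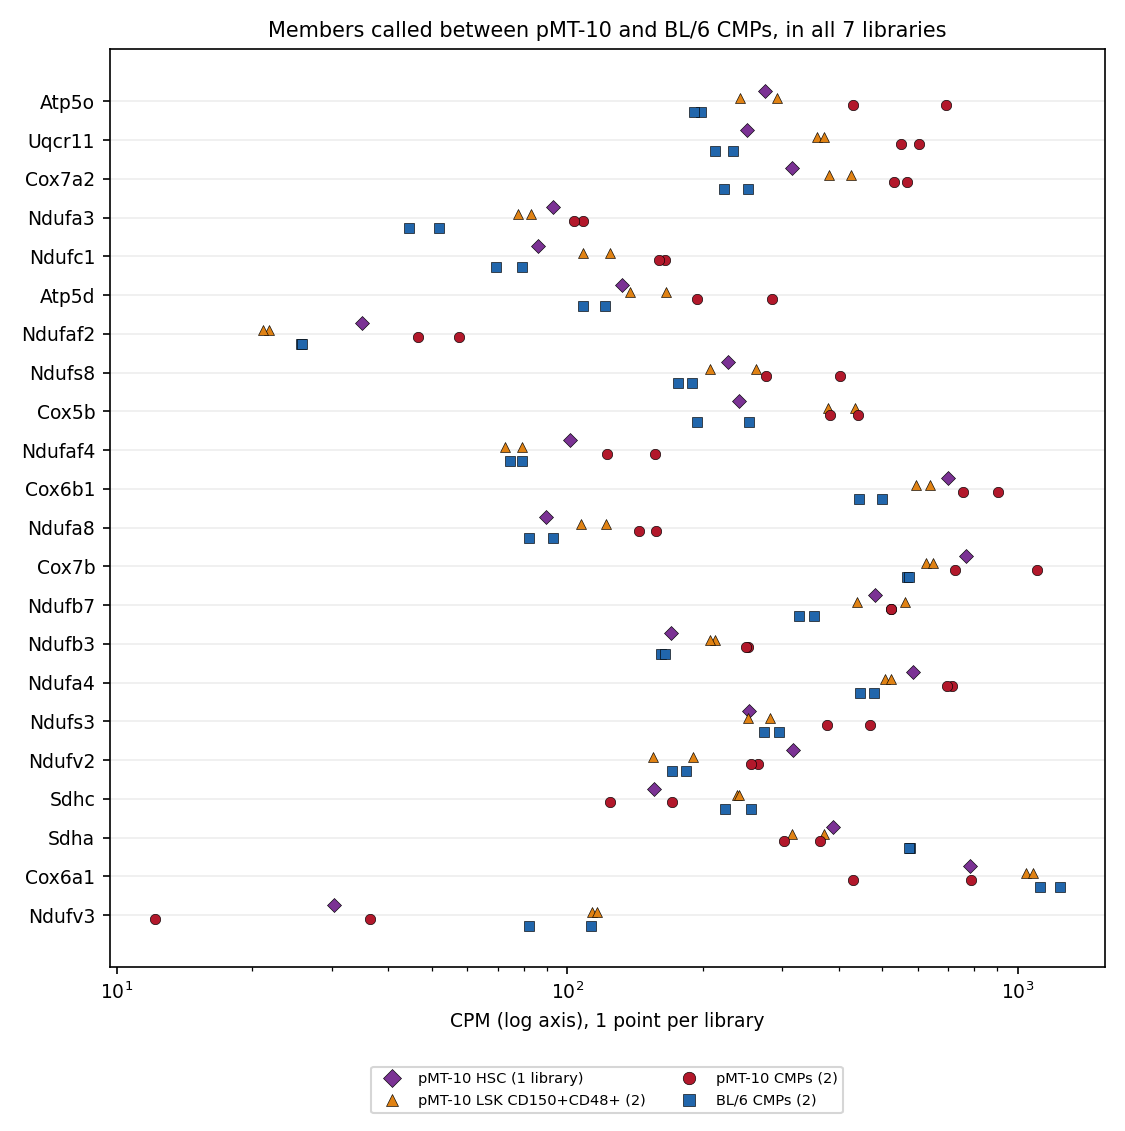
CPM (log axis) of the 22 members called between the CMP groups, with 1 point for each of the 7 libraries, ordered by fold change. Red circles (pMT-10 CMPs) lie right of blue squares (BL/6 CMPs) in the upper 18 rows and left of them in the lower 4, and the LSK CD150+CD48+ and HSC points lie between or beside them.

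The LSK CD150+CD48+ libraries of chip 1 and the HSC library of chip 2 lay on the side of their own chip's CMPs for 7 of the 18 increases (Atp5d, Cox5b, Cox7a2, Ndufa8, Ndufb3, Ndufc1 and Uqcr11) and 1 of the 4 decreases (Sdha), so that all 4 libraries of chip 1 stood apart from all 3 of chip 2. Of all tested genes, 10.2% had all chip 1 libraries above those of chip 2, and 11.5% had them all below. Of the 76 tested members 13.2% did so in each direction. Because the genes named here were already called between the CMPs of the chips, nothing is read from their count. Markers of granule-forming cells differed between the groups too: the 11 measured genes summed to 531 and 840 CPM in pMT-10 CMPs, against 213 and 252 CPM in BL/6 CMPs. Ctsg and Prtn3, which encode granule proteases, made up most of these sums, with 265 and 462 CPM and 189 and 282 CPM in pMT-10 CMPs, against 104 and 93.0 CPM and 105 and 90.9 CPM in BL/6 CMPs. Mpo, myeloperoxidase, went the other way, with 8.39 and 6.03 CPM in pMT-10 CMPs, against 12.1 and 16.8 CPM in BL/6 CMPs, and so did Ngp, at 0.110 and 0.348 CPM against 4.99 and 1.54 CPM. The 8 erythroid genes summed to 9532 and 10848 CPM in pMT-10 CMPs, against 12793 and 15137 CPM in BL/6 CMPs. Their part in the result was not tested, and in bulk libraries a change in cell types and a change of RNA per cell cannot be told apart. Only Uqcr11 and Atp5o were called in all 14 alternative settings. In the fits given next, the shares of all genes called moved in the same direction as the counts of members. Without BL/6 replicate 1 there were 2 increases and 0 decreases (17 members at an unadjusted p under 0.05), and without BL/6 replicate 2 there were 5 and 0 (21 members). With pMT-10 CMP replicate 1 left out there were 26 and 17, with replicate 2 of that group left out 22 and 10, and without either LSK CD150+CD48+ library the decreases numbered 2.

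Related genes from lists outside the name rule are given by count, to be read beside the shares of all genes called higher and lower in the same comparison (14.3 and 13.7% between the CMP groups). Of 33 tested assembly factors other than the Ndufaf series, 10 rose and 2 fell in pMT-10 CMPs, with a median log2 fold change of 0.29. Uqcc2, an assembly factor of complex III, averaged 253 CPM in pMT-10 CMPs and 109 CPM in BL/6 CMPs (1.22 ± 0.23), and Bcs1l, which inserts the Rieske protein Uqcrfs1, 81.4 and 43.5 CPM (0.90 ± 0.19). Cox11 and Surf1, assembly factors of complex IV, rose by 1.33 ± 0.23 and 1.15 ± 0.30, while Coa5 fell by 1.24 (SE 0.24). Of 22 genes of the tricarboxylic acid cycle and pyruvate dehydrogenase, 1 rose and 3 fell (Pdha1, Idh3a and Dlat). Of 19 regulators of mitochondrial transcription and biogenesis, Polg, the mitochondrial DNA polymerase, rose by 0.94 ± 0.17, and Tfam, Polrmt and Myc fell by 1.12, 1.34 and 1.12 (SE 0.23, 0.30 and 0.21). Genes of these lists named here were picked after their values were seen. In LSK CD150+CD48+ cells against pMT-10 CMPs (5.92 and 5.92% of all genes) the counts were 0 higher and 5 lower for assembly factors, 0 and 0 for the cycle and 0 and 1 for the regulators. Set against LSK CD150+CD48+ cells (10.6 and 8.15%), HSC had 3 and 3, 2 and 4, and 2 and 2. Against pMT-10 CMPs (13.8 and 11.7%) HSC had 1 and 7, 1 and 5, and 1 and 2, and against BL/6 CMPs (11.8 and 8.5%) 2 and 2, 2 and 2, and 0 and 2.

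The second comparison, LSK CD150+CD48+ cells against CMPs, lies within pMT-10 mice and within chip 1. In LSK CD150+CD48+ cells 2 of 76 members rose (2.63%, against 5.92% of all genes) and 8 fell (10.5%, against 5.92%). Both complex III and complex I had decreases: 2 of 9 genes of complex III, 3 of 31 complex I subunits, 2 of 7 assembly factors and 1 of 12 of the ATP synthase fell, and in complexes II and IV no member fell. The median log2 fold change was -0.25. This comparison and the first share the pMT-10 CMP libraries, so a gene that was high there counts in both.

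The decreases were Ndufaf2, Ndufb6, Uqcrq, Atp5o, Ndufa5, Ndufaf4, Ndufs3 and Uqcr11. Ndufaf2 was at 21.7 and 21.1 CPM in LSK CD150+CD48+ cells, against 46.7 and 57.5 CPM in pMT-10 CMPs, and fell by 1.28 on the log2 scale (SE 0.21, adjusted p = 0.00758). Uqcrq, a subunit of complex III that binds ubiquinone, was at 94.7 and 141 CPM in LSK CD150+CD48+ cells, against 211 and 339 CPM in pMT-10 CMPs (-1.22 ± 0.26, adjusted p = 0.0208). Ndufa5 was at 94.2 and 93.5 CPM in LSK CD150+CD48+ cells, against 153 and 196 CPM in pMT-10 CMPs (-0.90 ± 0.19, adjusted p = 0.0187). The libraries of these 3 genes did not overlap. Uqcr11 was at 357 and 371 CPM in LSK CD150+CD48+ cells, which placed them between the CMP groups.

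Ndufv3 rose to 113 and 117 CPM in LSK CD150+CD48+ cells, against 36.5 and 12.2 CPM in pMT-10 CMPs, a log2 fold change of 2.24 ± 0.42 (adjusted p = 0.0124). The LSK CD150+CD48+ level of Ndufv3 was near that of BL/6 CMPs, and the low libraries for this gene were the 2 of pMT-10 CMPs and the HSC library. Cox8a, with 7.25 and 9.72 CPM in LSK CD150+CD48+ cells against 2.54 and 2.09 CPM in pMT-10 CMPs, was the other increase, at a low level. In complex II, Sdhc was at 238 and 240 CPM in LSK CD150+CD48+ cells, against 171 and 124 CPM in pMT-10 CMPs, and missed the threshold (0.70 ± 0.20, adjusted p = 0.0511). Without either LSK CD150+CD48+ library no member was called (15 at an unadjusted p under 0.05 without replicate 1, 19 without replicate 2), and without pMT-10 CMP replicate 1 there were 17 increases and 25 decreases, and without replicate 2 of that group 4 and 20. Without either BL/6 CMP library, which lie outside the comparison, 3 decreases were called. DESeq2 called 4 increases and 12 decreases with all libraries (7.81 and 7.58% of all genes). In each fit given here with a library left out, the shares of all genes called moved in the same direction as the counts of members.

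The HSC library stands alone in its group, and its tests take the spread of the other groups as its own. It was set against LSK CD150+CD48+ cells (other chip), against pMT-10 CMPs (other chip) and against BL/6 CMPs (same chip, other strain). Against LSK CD150+CD48+ cells 8 of 76 members rose (10.5%, against 10.6% of all genes) and 1 fell (1.32%, against 8.15%). Against pMT-10 CMPs 4 rose (5.26%, against 13.8%) and 8 fell (10.5%, against 11.7%). Against BL/6 CMPs 3 rose (3.95%, against 11.8%) and 2 fell (2.63%, against 8.5%). Fitted with only the groups compared, 14 rose and 9 fell against LSK CD150+CD48+ cells (18.2 and 18.2% of all genes in that fit). Such a fit gave 1 and 1 against pMT-10 CMPs (5.29 and 4.08%) and 23 and 14 against BL/6 CMPs (27.1 and 27.8%). The median log2 fold changes of the tested members were 0.09, -0.04 and 0.14. These 3 comparisons share the HSC library.

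Cox4i2, an isoform of complex IV subunit IV known from lung and from low-oxygen conditions (chromosome 2, 152753916 to 152765039), had the largest fold changes of the HSC library. It had 120 counts in the HSC library, against 8 and 14 in the LSK CD150+CD48+ pair, 7 and 9 in pMT-10 CMPs and 4 and 4 in BL/6 CMPs. That is 15.9 CPM in HSC, with every other library between 0.323 and 1.04 CPM. It passed the filter on low counts only through the HSC library, where it is high, so it had to differ to be tested. The log2 fold change was 4.01 ± 0.52 against LSK CD150+CD48+ cells (adjusted p = 0.00205), 4.11 ± 0.53 against pMT-10 CMPs (adjusted p = 0.00135) and 5.47 ± 0.58 against BL/6 CMPs (adjusted p = 0.000335). All 3 calls were kept in each of the 12 alternative settings, among them the fit with no filter. Every one of these settings uses the same HSC library, so keeping the calls adds no support from a further library. The common isoform Cox4i1 was at 223 CPM in HSC, against 217 and 241 CPM in LSK CD150+CD48+ cells, 257 and 138 CPM in pMT-10 CMPs and 242 and 254 CPM in BL/6 CMPs, and was not called in any of these comparisons. Between the CMP groups Cox4i2 had a log2 fold change of 1.36 ± 0.62 and did not pass (adjusted p = 0.127).

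Markers of stem cells and of other cells moved with the HSC library as well. The 7 stem cell genes summed to 566 CPM in HSC, against 188 and 197 CPM in LSK CD150+CD48+ cells, and the 8 erythroid genes to 2393 CPM, against 9406 and 11640 CPM. The 5 measured B and plasma cell genes summed to 53.9 CPM in HSC (2 of them at 0), against 11.3 to 19.1 CPM in the other libraries. The 7 stromal and endothelial genes summed to 125 CPM in HSC (4 at 0), within the 95.8 to 170 CPM of the others. The part of other cells in the HSC values was not tested.

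**Figure D3:**
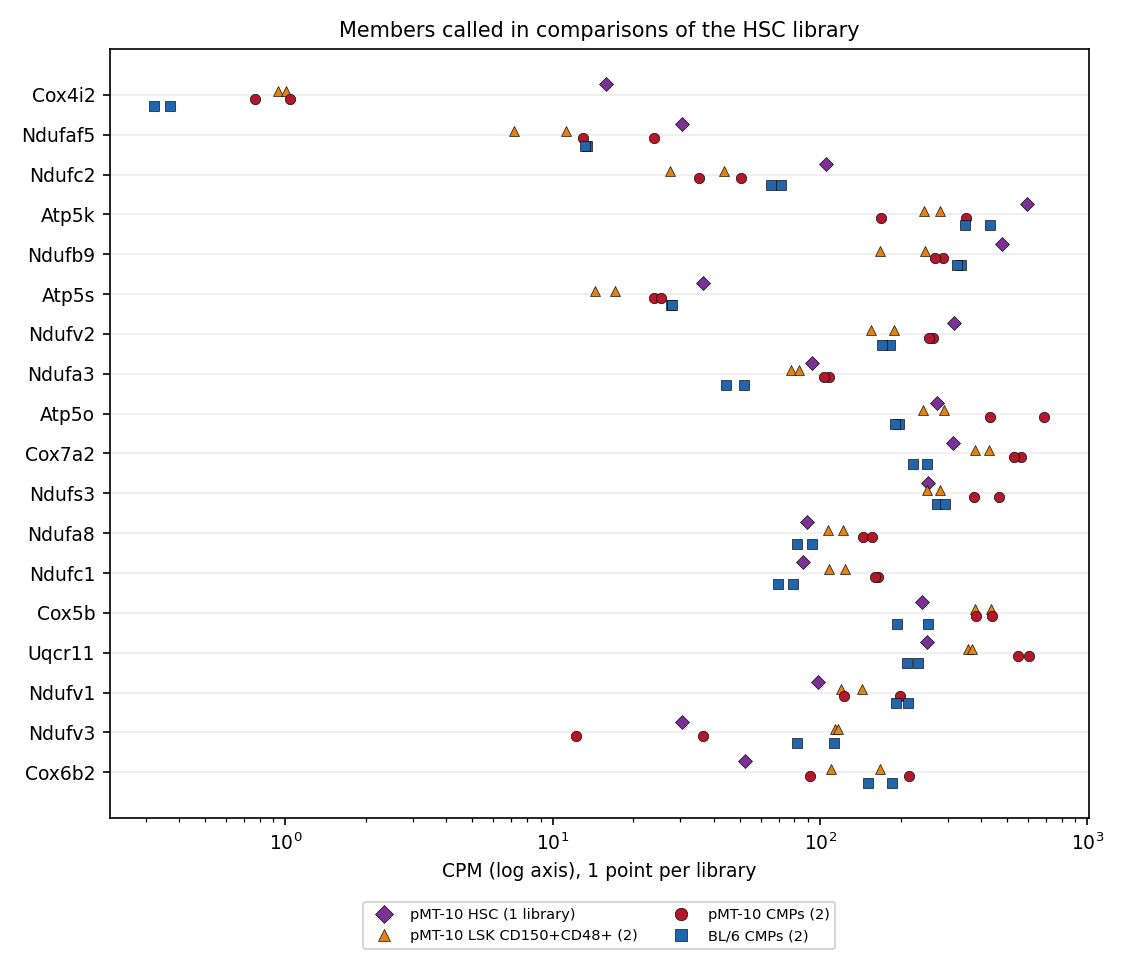
CPM (log axis) of 18 members called in at least 1 of the 3 comparisons of the HSC library, with 1 point for each of the 7 libraries. The HSC point of Cox4i2 stands at 15.9 CPM, right of the 6 other libraries, which lie at or under 1.04 CPM.

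Other increases in HSC were in complex I, its assembly factors and the ATP synthase. Ndufaf5, an assembly factor of complex I, was at 30.4 CPM in HSC, against 7.13 and 11.2 CPM in LSK CD150+CD48+ cells, 13.0 and 24.0 CPM in pMT-10 CMPs and 13.5 and 13.2 CPM in BL/6 CMPs. The HSC library was above all others, and the call was made against LSK CD150+CD48+ cells (1.72 ± 0.41, adjusted p = 0.0214). Ndufc2, an accessory subunit of the membrane arm, was at 105 CPM in HSC, against 27.4 and 43.7 CPM in LSK CD150+CD48+ cells, 35.3 and 50.7 CPM in pMT-10 CMPs and 65.4 and 71.7 CPM in BL/6 CMPs. It was called against LSK CD150+CD48+ cells (1.56 ± 0.31, adjusted p = 0.0115) and pMT-10 CMPs (1.30 ± 0.32, adjusted p = 0.0184), and the BL/6 libraries, on the chip of the HSC, came nearest to it. Ndufb9 followed the same order of groups and was called in the same comparisons (1.21 ± 0.24 and 0.78 ± 0.25), with 478 CPM in HSC, 168 and 246 CPM in LSK CD150+CD48+ cells, 287 and 270 CPM in pMT-10 CMPs and 338 and 325 CPM in BL/6 CMPs. Atp5k, the e subunit at which ATP synthase dimers meet, was at 595 CPM in HSC, against 244 and 282 CPM in LSK CD150+CD48+ cells, 350 and 168 CPM in pMT-10 CMPs and 433 and 348 CPM in BL/6 CMPs, and was called against both other pMT-10 groups (1.18 ± 0.36 and 1.20 ± 0.36). Ndufc2 and Ndufb9 are among the 10 members (13.2%, against 11.5% of all tested genes) whose chip 1 libraries all lie below those of chip 2. Against BL/6 CMPs, on the same chip, Ndufa3 and Ndufv2 rose by 0.94 ± 0.22 and 0.84 ± 0.21.

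Most decreases in HSC were against pMT-10 CMPs, 3 in complex I, 3 in complex IV, 1 in complex III and 1 in the ATP synthase. That comparison is also one between chips. Uqcr11, Ndufc1, Ndufa8, Cox5b and Cox7a2 are among the 10 members whose chip 1 libraries all lie above those of chip 2. Those 10 are 13.2% of the tested members, against 10.2% of all tested genes. For Uqcr11 the BL/6 CMPs, on the chip of the HSC, were at 212 and 233 CPM. Uqcr11 was at 250 CPM in HSC, against 550 and 602 CPM in pMT-10 CMPs (-1.20 ± 0.22, adjusted p = 0.00566), and this call held in all 12 alternative settings. Cox6b2, known from testis and here read at 92.0 CPM or more in every other library, was at 52.1 CPM in HSC, against 110 and 168 CPM in LSK CD150+CD48+ cells, 215 and 92.0 CPM in pMT-10 CMPs and 152 and 186 CPM in BL/6 CMPs. It was called against both CMP groups (-1.56 ± 0.48 and -1.69 ± 0.48). Ndufv1, the subunit that takes electrons from NADH, was at 97.8 CPM in HSC, against 192 and 214 CPM in BL/6 CMPs (-1.05 ± 0.31, adjusted p = 0.0408). Ndufv3 was at 30.3 CPM in HSC, against 113 and 117 CPM in LSK CD150+CD48+ cells (-1.92 ± 0.54, adjusted p = 0.0375). In complex II no member was called in any HSC comparison; Sdha was at 388 CPM and Sdhc at 156 CPM in HSC. The counts depended on single libraries, and in each fit given next the shares of all genes called moved in the same direction. Against LSK CD150+CD48+ cells there were 1 increase and 0 decreases without LSK CD150+CD48+ replicate 1, 3 and 0 without replicate 2 of that group, 4 and 0 without either BL/6 library, 18 and 11 when pMT-10 CMP replicate 1 was left out and 17 and 11 when its replicate 2 was. Against pMT-10 CMPs there were 17 and 21 when pMT-10 CMP replicate 1 was left out, 10 and 15 when its replicate 2 was, 2 and 1 without BL/6 replicate 1, 2 and 2 without BL/6 replicate 2, and 2 decreases without either LSK CD150+CD48+ library. Against BL/6 CMPs there were 1 and 0 without either BL/6 library, 14 and 11 when pMT-10 CMP replicate 1 was left out, 15 and 11 when its replicate 2 was, and 0 decreases without either LSK CD150+CD48+ library. At an unadjusted p under 0.05 the counts over those fits with 0 decreases ran from 5 to 15 members.

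Levels were also summed over each complex. All 82 members summed to 21130 CPM in HSC, 20260 ± 425 CPM in LSK CD150+CD48+ cells, 22412 ± 1589 CPM in pMT-10 CMPs and 20197 ± 884 CPM in BL/6 CMPs (SD, n = 2 each where given). Complex I subunits summed to 5973 CPM in HSC, 5345 ± 138 CPM in LSK CD150+CD48+ cells, 6325 ± 50.2 CPM in pMT-10 CMPs and 5504 ± 217 CPM in BL/6 CMPs, and the 2 pMT-10 CMP libraries were above the other 5. Complex II had the opposite end: 1256 CPM in HSC, 1422 ± 128 CPM in LSK CD150+CD48+ cells, 1504 ± 77.0 CPM in pMT-10 CMPs and 1725 ± 82.7 CPM in BL/6 CMPs, with both BL/6 libraries highest. Complex III stood at 2959 CPM in HSC, 2642 ± 144, 2846 ± 454 and 2855 ± 227 CPM in the same order of groups, where the pMT-10 CMP libraries spanned the others. Complex IV stood at 4078 CPM in HSC, 4368 ± 198, 4814 ± 837 and 3874 ± 275 CPM, and the ATP synthase at 6474 CPM in HSC, 6163 ± 76.4, 6500 ± 458 and 5882 ± 72.1 CPM. These sums weigh genes by their amplicons and were not tested.

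**Figure D4:**
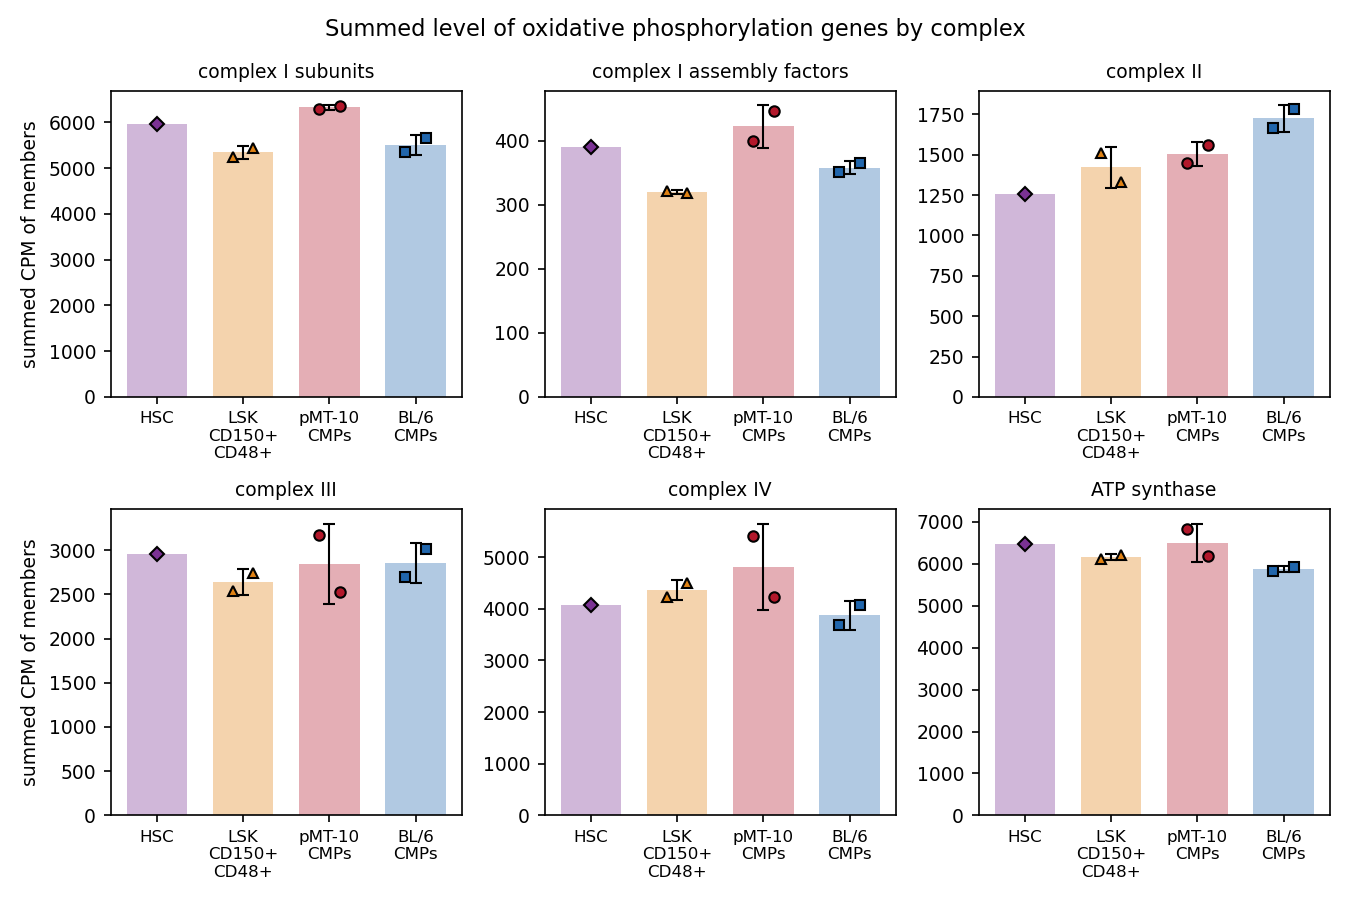
Summed CPM of the members of each complex; bars are group means from 0, error bars the SD of 2 libraries (none for the HSC library), points the libraries. Complex I subunits are highest in pMT-10 CMPs and complex II in BL/6 CMPs, while the pMT-10 CMP libraries of complexes III and IV lie far apart.

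Across the 4 group means, 51 of the 76 tested members (67.1%) stayed within a 2-fold range from lowest to highest group, against 44.0% of all tested genes. Among genes with a mean of 20 CPM or more these shares were 70.4 and 59.2%. All 4 members of complex II lay within that range. The widest range was that of Cox4i2 (45.9-fold), followed by Uqcrb (5.17-fold) and Ndufv3 (4.72-fold). The highest group was pMT-10 CMPs for 31 members, HSC for 22, BL/6 CMPs for 12 and LSK CD150+CD48+ for 11. The lowest group was BL/6 CMPs for 25 members, LSK CD150+CD48+ for 22, pMT-10 CMPs for 20 and HSC for 9. Such counts were not made over all tested genes, so nothing is read from them.

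The replicates of pMT-10 CMPs disagreed for more members than the other pairs did. In that group 12 of 76 members (15.8%, against 17% of all genes) differed over 2-fold between the libraries, 9 of them higher in replicate 1, compared with 1 member (1.32%, against 5.02% of all genes) in the LSK CD150+CD48+ pair and 1 (1.32%, against 3.45%) in the BL/6 pair. The share of members was below that of all genes in each pair. Uqcrb, a complex III subunit, was at 61.5 and 7.19 CPM in pMT-10 CMPs, against 106 and 149 CPM in BL/6 CMPs, and did not pass despite a log2 fold change of -1.89 (SE 0.68). Atp5j2 was at 572 and 135 CPM in pMT-10 CMPs, against 424 and 471 CPM in BL/6 CMPs. Ndufb8 was at 48.3 and 281 CPM in pMT-10 CMPs, against 108 and 95.9 CPM in BL/6 CMPs. For these genes the group mean describes neither library.

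**Figure D5:**
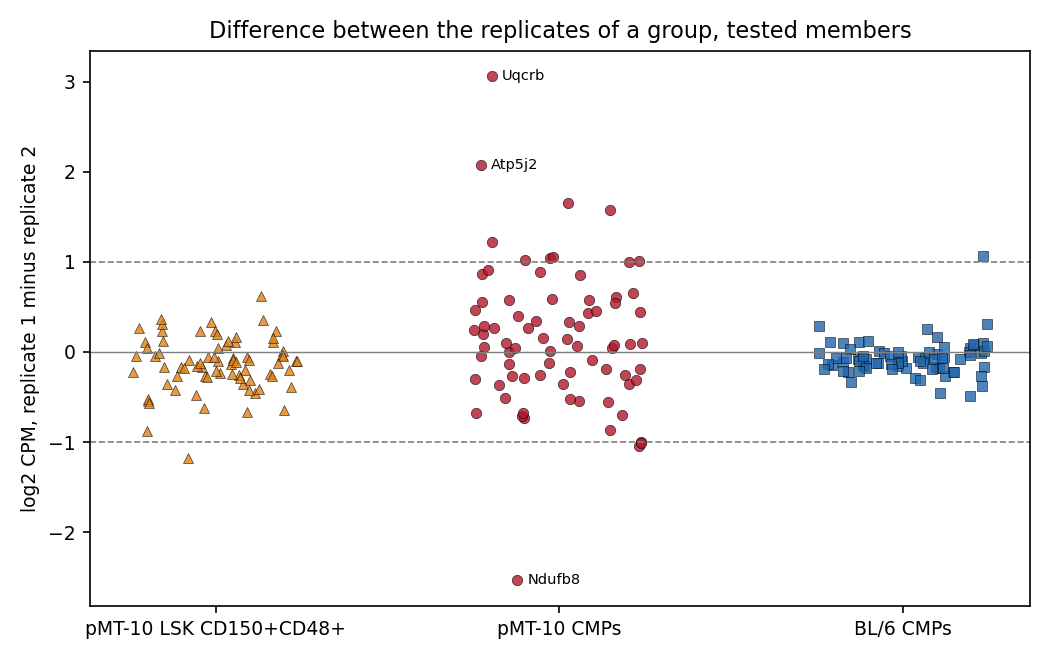
Log2 CPM of replicate 1 minus replicate 2 for each tested member in the 3 groups with a pair of libraries; dashed lines mark a 2-fold difference. The pMT-10 CMP points reach from Ndufb8 (-2.54) to Uqcrb (3.06), and 1 point in each of the other groups lies outside the dashed lines.

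Some members were read at very low levels in every library. Cox6c, a subunit found in all tissues, had 8 to 20 counts per library, and Cox7a1, the heart and muscle isoform of subunit VIIa, had 7 to 18. No comparison called either gene. Several called members overlap other annotated genes in GENCODE M21 (Ndufa3 with Tfpt, Atp5d with Cbarp, Ndufaf2 with Smim15, Ndufs3 with Kbtbd4, Ndufb6 with Smim27, Ndufb9 with Gm49356, and Sdha and Ndufc2 with pseudogenes), and since the strand used in counting is not given in the sources used here, reads of such partners cannot be told apart.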

How the data were processed

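Libraries were made from total RNA of sorted cells with the Ion AmpliSeq Transcriptome Mouse kit, per the labels' protocols. The authors deposited raw read counts per gene (1 amplicon each, no molecular identifiers) in 1 table per chip; the submitters' processing notes name mm10 as build. An aligner or counting program is not given in the sources used here. Totals were 7372430 to 13854314 counts.

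The 7 columns were matched to samples by table and barcode. Counts were fitted with edgeR 4.0.16 (R 4.3.3): filterByExpr with a minimum count of 10 (11429 genes), TMM scaling, 4 group means (3 residual degrees of freedom), robust quasi-likelihood F-test, Benjamini-Hochberg adjustment over all genes, and a call at an adjusted p under 0.05. SEs are the fold change over the square root of F. CPM use TMM-scaled totals; the floors use plain totals. The scripts were tested on simulated data.

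Members and lists were chosen with earlier results of these data known. Named genes are, per comparison, called members with non-overlapping libraries and 10 CPM or more in the higher group. Up to 8 were taken in each direction by size. Fixed sets were complex II, catalytic subunits of complexes I and III, isoform pairs, and Atp5a1, Atp5b, Atp5c1, Atp5d and Atp5e of the ATP synthase. Ndufb3, Ndufb7, Ndufb8, Uqcrb, Atp5j2 and Cox6c were named after their values were seen. Values of some single genes are not reported here. Of a fixed list of cytochrome c and the ATP synthase inhibitor, 2 of 3 genes were in the tables and 0 had enough counts to test.

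The labels do not say whether equal replicate numbers in different groups belong together. Replicate differences correlated at -0.0192, -0.0195 and -0.0764 between groups. Correlations of this kind cannot show whether libraries share a mouse or a sort. Alternatives were RLE factors, total counts, DESeq2 1.42.0, no filter, a minimum count of 50, each library left out, only the groups compared, and the replicate number as a block. All 82 members matched RefSeq (80 by symbol, 2 by synonym), the source of positions and promoter sequence.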

Additional observations from a re-analysis of the deposited data

How the results depend on the processing

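Of 58 calls, 6 held in every alternative and none changed sign. The 6 include the Cox4i2 calls against LSK CD150+CD48+ cells, pMT-10 CMPs and BL/6 CMPs, which all rest on the same HSC library. With a library left out, the shares of all genes called moved as well as the counts of members. Members called higher, with a library left out, ranged over 2 to 26 (pMT-10 against BL/6 CMPs), 0 to 17 (LSK CD150+CD48+ against pMT-10 CMPs), 1 to 18 (HSC against LSK CD150+CD48+), 2 to 17 (HSC against pMT-10 CMPs) and 1 to 15 (HSC against BL/6 CMPs), and members called lower over 0 to 17, 0 to 25, 0 to 11, 1 to 21 and 0 to 11 in the same order. Median log2 fold changes ranged over -0.0203 to 0.2257, -0.302 to -0.1826, 0.0232 to 0.1289, -0.1826 to 0.0444 and 0.0508 to 0.1353. With no filter, the first comparison had 8 lower (10.7% of all genes) and the second 5 higher and 14 lower (6.53 and 5.91%). HSC against LSK CD150+CD48+ then had 4 lower (7.53%). DESeq2 gave 4 higher in the second (7.81% of all genes) and 3 lower in HSC against LSK CD150+CD48+ (9.59%). Fitting only the groups compared gave 2 lower in the first (9.71% of all genes) and 3 lower in the second (3.1%). There HSC had 14 higher and 9 lower against LSK CD150+CD48+ (18.2 and 18.2%). It had 1 and 1 against pMT-10 CMPs (5.29 and 4.08%) and 23 and 14 against BL/6 CMPs (27.1 and 27.8%). Total counts gave 1 lower for HSC against BL/6 CMPs, and sums of 6639.7 CPM (HSC) and 5787.7 CPM (BL/6 CMPs) for the ATP synthase, 4182.7 CPM for complex IV, 3034.4 CPM for complex III, 1287.6 CPM for complex II and 6125.2 CPM for complex I in HSC, 6428.7 CPM for complex I in pMT-10 CMPs and 316.1 CPM for assembly factors in LSK CD150+CD48+ cells. RLE factors and a minimum count of 50 moved no count of calls by over 1.5 times. The causes were not tested.

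With the replicate number as a block, in 6 libraries without HSC, 17 members were higher and 4 lower in pMT-10 against BL/6 CMPs, and 2 higher and 7 lower in LSK CD150+CD48+ cells against pMT-10 CMPs. No paired analysis was possible for HSC because it has 1 library. With 2 libraries a group, or 1, a difference that is not called is not shown to be absent, and members with few counts (Cox6c, Cox7a1) could show large differences only.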
